A study of Mus musculus with 12 samples.

Results

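The step from gestation day 8.5 (GD8.5) to gestation day 9.0 (GD9.0) in the mouse neural tube was described gene by gene, from the arrays that the labels assign to these stages. These were 8 of the 12 mRNA arrays of the study, 4 labelled biological replicates per stage, and 18193 genes were compared, each through 1 of the 45037 probe sets other than control sets. Neural tubes were micro-dissected from embryos of ICR (CD-1) mice, an outbred stock, with the day of the vaginal plug counted as day 0. The labels name no treatment or genetic change, so the groups are untreated embryos that differ in stage. The labels did not say whether a replicate was 1 litter or a pool, and gave no sex. If replicates came from shared litters, the p-values below measure only the spread between these preparations. RNA was biotin labelled and hybridised to an Affymetrix mouse genome array. GD8.5 replicates 1 and 2 were deposited as linear intensities and the other arrays as log2 values, so the comparison rested on 6 arrays, replicates 3 and 4 at GD8.5 and replicates 1 to 4 at GD9.0. A level below is the deposited log2 value of a gene's brightest probe set, and values by array follow replicate order. A log2 change is the GD9.0 mean minus the GD8.5 mean with its standard error (SE, n = 4 against 2). Levels of different genes are not compared, since probes differ in brightness.

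Over these stages the neural plate bends, its folds meet, and the tube closes from several points towards the brain and the tail. The wall is a dividing neuroepithelium whose cells take positions from signals along the head to tail axis (FGF, Wnt and retinoic acid) and the dorsal to ventral axis (BMP and Wnt above, hedgehog below). Notch signalling keeps most cells as progenitors while proneural basic helix-loop-helix factors drive others out of the cycle as neurons. Heart, foregut, yolk sac and surface ectoderm lie next to the folds at the start of this window.

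Array quality and tissue markers were examined first. Array medians of the 6 log2 arrays lay between 1.76 and 1.81. The median SD of a gene was 0.068 at GD8.5 (n = 2) and 0.104 at GD9.0 (n = 4). SDs from unlike numbers of arrays are not directly comparable. All 8 neuroepithelium markers were above the background, a level of 1.42 under which 95% of 39 olfactory receptor genes lay, and their mean level was 5.73 at GD8.5 and 6.24 at GD9.0. Markers of other tissues were above it as well. The mean of 5 heart muscle markers went from 7.42 to 4.07, that of 5 yolk sac endoderm markers from 7.85 to 4.64, and that of 4 surface ectoderm markers from 7.55 to 6.68. The mean of 3 primitive red cell markers went from 9.13 to 10.8, that of 3 mesenchyme markers from 5.51 to 6.63 (in the wider list of 44 head mesenchyme and mesoderm genes 14 fell and 4 rose), and that of 3 endothelial markers from 3.17 to 3.01. Of 2 trophoblast or decidua markers Prl8a2 was above the background and Tpbpa was below it at both stages. Control probe sets for 18S ribosomal RNA stood at 9.82 ± 0.008 (SD, n = 2) at GD8.5 and 8.81 ± 0.18 (n = 4) at GD9.0. Actin control sets read 0.710 ± 0.015 higher at the 3' end than at the 5' end at GD8.5, and 0.563 ± 0.026 higher at GD9.0. These shifts accompany every difference between the stages given below, and their part in it was not tested. In whole tissue RNA, fewer cells of a type and less RNA per cell cannot be told apart.

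By limma with Benjamini-Hochberg adjustment 2460 of 18193 genes (13.5%) changed at an adjusted p under 0.05. Of these, 1233 were higher at GD9.0 (6.78%) and 1227 were lower (6.74%). Most changes were small, with a median absolute log2 change of 0.44 among called genes. The falls reached further than the rises. At 2-fold or more there were 106 rises (0.583%) and 188 falls (1.03%), and at 4-fold or more 10 rises and 67 falls. Of those 67, 33 belonged to the heart, yolk sac, visceral endoderm or placenta lists. The lists were chosen with earlier results of these data known, so this count is not independent of the falls. The counts depended on both GD8.5 arrays. Without replicate 3 there were 772 higher and 754 lower genes, and without replicate 4 there were 630 and 757. The words rose and fell below are used only of genes called in this way. The shares of 6.78% higher and 6.74% lower are the base for each list count below. Arrays without overlap were more common than calls. In 17.6% of all genes every GD9.0 array lay above both GD8.5 arrays, and in 16.9% every one lay below.

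**Figure D1:**
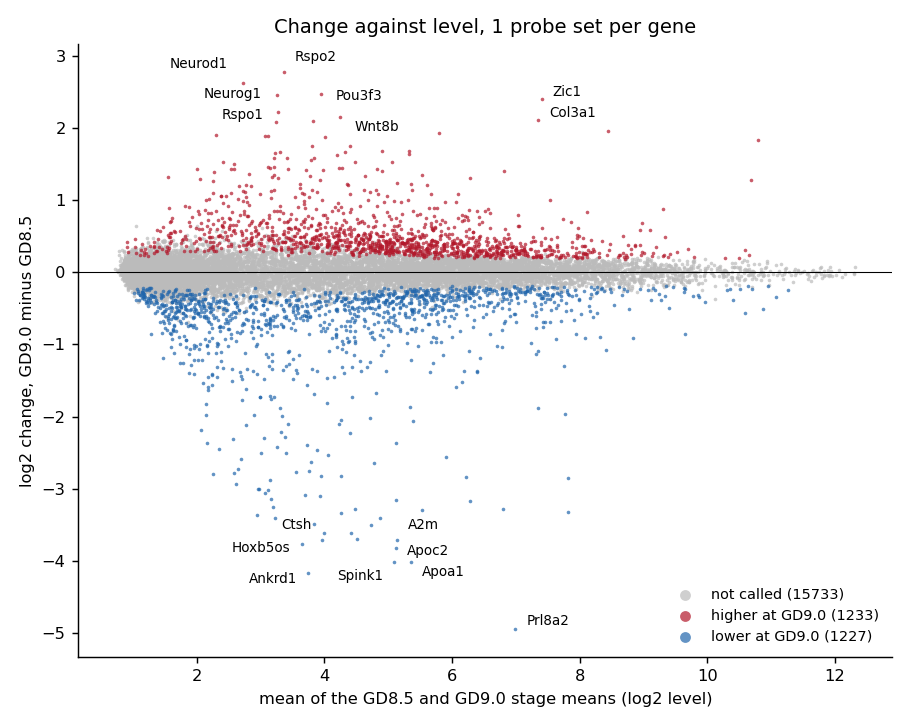
Log2 change from GD8.5 to GD9.0 (vertical axis) against the mean of both stage means on the log2 scale (horizontal axis) for 18193 genes, with called genes coloured and the 8 largest rises and 8 largest falls named. The falls extend to 30.8-fold (Prl8a2) and the rises to 6.86-fold (Rspo2).

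Both linear GD8.5 arrays gave a check of direction that shares the GD9.0 arrays with the comparison. They were put on a log2 scale and quantile normalized to the 10 log2 arrays, which gives them the same distribution of values. Whether differences in processing remained at single genes was not tested. Among genes with a mean level above 5, 627 of 673 that rose (93.2%) and 510 of 550 that fell (92.7%) had the same sign against the linear arrays, compared with 2858 of 4323 genes that were not called (66.1%). The 16 largest changes named in the next paragraphs had both linear arrays on the same side of all GD9.0 arrays. At levels above 5 this held for 78.2% of genes that rose and 83.3% of genes that fell. Among the genes named below, Grhl2, Hbb-b2, Hes7, Msx2, Sox10 and Tyms went the other way against the linear arrays, which is stated again where each appears.

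The 8 largest rises were chosen among called genes whose GD8.5 and GD9.0 arrays do not overlap. They were 4 transcription factors of the neural tube, 3 Wnt ligands or agonists and a collagen. The Wnt agonist Rspo2, a secreted R-spondin, had levels of 1.80 and 2.16 at GD8.5 and 4.68, 4.68, 4.81 and 4.85 at GD9.0, a 6.86-fold rise (log2 change 2.78 ± 0.11, adjusted p = 2.2e-08). Neurod1, which drives the differentiation of neurons, stood at 1.40 and 1.40 at GD8.5 and 4.09, 4.06, 4.06 and 3.92 at GD9.0. Its GD8.5 mean was below the background, so the rise was at least 6.11-fold (adjusted p = 2.1e-09). In both genes the lowest GD9.0 array was far above the highest GD8.5 array. The POU factor Pou3f3 stood at 2.75 and 2.68 at GD8.5 and 5.21, 5.08, 5.23 and 5.22 at GD9.0 (log2 change 2.47 ± 0.08), and the proneural factor Neurog1 at 1.85 and 2.19 at GD8.5 and 4.51, 4.50, 4.54 and 4.37 at GD9.0 (2.46 ± 0.11). The dorsal zinc finger factor Zic1 had 6.25 and 6.16 at GD8.5 and 8.55, 8.66, 8.59 and 8.62 at GD9.0 (2.40 ± 0.06). Rspo1, a second R-spondin, rose by 2.22 ± 0.09, Wnt8b, a Wnt ligand of the forebrain, by 2.16 ± 0.07, and Col3a1, a fibrillar collagen of mesenchyme, by 2.11 ± 0.07 on the log2 scale.

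The 8 largest falls, chosen in the same way among genes without overlap, were led by genes known from decidua, heart and yolk sac. Prl8a2, a decidual hormone related to prolactin, had levels of 9.45 and 9.48 at GD8.5 and 4.27, 4.61, 4.60 and 4.60 at GD9.0, a 30.8-fold fall (log2 change -4.95 ± 0.10, adjusted p = 4.9e-10). Ankrd1, a nuclear ankyrin repeat protein of heart muscle, stood at 5.78 and 5.87 at GD8.5 and 1.54, 1.69, 1.68 and 1.76 at GD9.0 (-4.16 ± 0.10). Other secreted proteins were Spink1, a trypsin inhibitor (-4.02 ± 0.12), the apolipoproteins Apoa1 (-4.01 ± 0.10) and Apoc2 (-3.83 ± 0.14), and A2m, a broad protease inhibitor (-3.71 ± 0.08). Ctsh, a lysosomal cysteine protease, fell by 3.71 ± 0.12, and the transcript Hoxb5os, opposite to Hoxb5, had 5.54 and 5.52 at GD8.5 and 2.01, 1.73, 1.46 and 1.83 at GD9.0. Hoxb5os and Hoxb5 overlap, and whether this probe set reads Hoxb5os alone was not tested. In all 8 genes every GD9.0 array lay more than 3 units below the lower GD8.5 array.

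**Figure D2:**
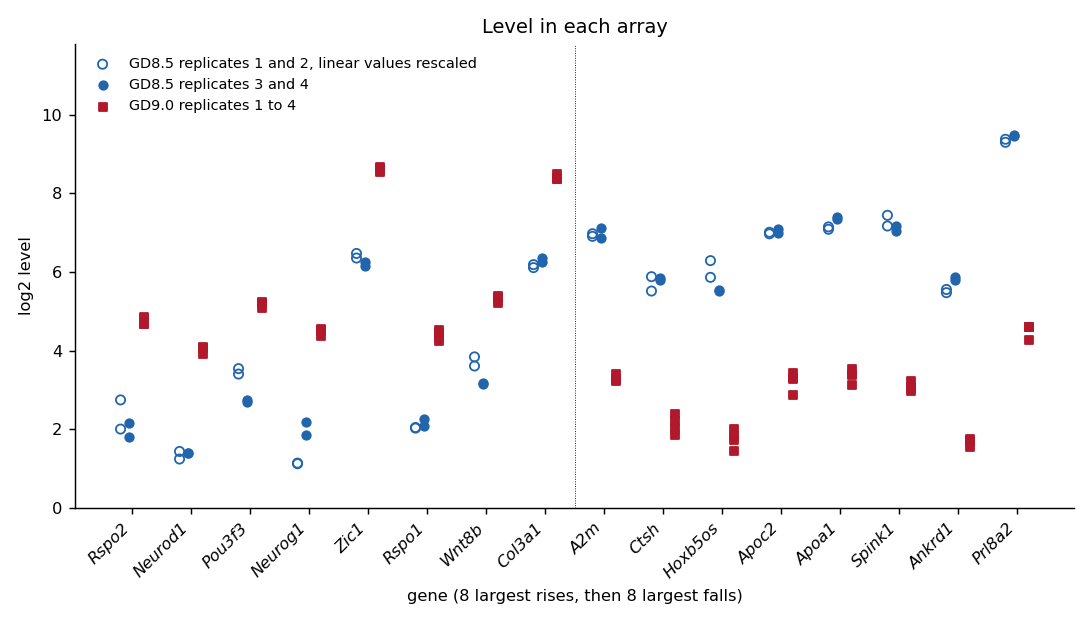
Log2 level of the 8 largest rises and 8 largest falls in each array, with GD8.5 replicates 3 and 4, the rescaled linear GD8.5 replicates 1 and 2, and GD9.0 replicates 1 to 4 as separate points. In all 16 genes every GD9.0 point lies on the same side of all 4 GD8.5 points. The genes were chosen among those whose GD9.0 arrays do not overlap GD8.5 replicates 3 and 4. Only the side of the linear points was not set by that choice.

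Most neural progenitor genes rose. Of the 32 measured 20 rose and 0 fell, with a median log2 change of 0.46 against -0.0019 over all genes, and 1 fell at an unadjusted p under 0.05 in limma. Besides Pou3f3 the largest rises were Fabp7, the brain fatty acid binding protein of radial glia, at 4.89 and 4.78 at GD8.5 and 6.79, 6.75, 6.78 and 6.74 at GD9.0 (1.93 ± 0.06), and Zfhx4, a large zinc finger homeobox protein, at 4.48 and 4.53 at GD8.5 and 6.09, 6.20, 6.11 and 6.18 at GD9.0 (1.64 ± 0.07). Pax6, a homeobox factor of forebrain and hindbrain progenitors, rose less (0.47 ± 0.08), with 6.06 and 6.01 at GD8.5 and 6.44, 6.42, 6.57 and 6.59 at GD9.0, and so did Nes, an intermediate filament of progenitors (0.46 ± 0.07). The SoxB1 factors, which hold cells in the progenitor state, did not pass the test. Sox2 had 8.51 and 8.52 at GD8.5 and 8.53, 8.66, 8.73 and 8.79 at GD9.0 (0.16 ± 0.08, adjusted p = 0.242), Sox1 changed by 0.07 ± 0.09 and Sox3 by -0.07 ± 0.08.

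Rises outnumbered falls among genes of neurogenesis. In the list of proneural and early neuron genes 18 of 43 rose and 3 fell, with a median change of 0.25. Elavl4, an RNA-binding protein of new neurons, stood at 3.15 and 2.72 at GD8.5 and 4.85, 4.66, 4.54 and 4.66 at GD9.0 (1.74 ± 0.12). It rested on 3 of 3 probe sets, and both GD8.5 arrays lay more than 1 unit below every GD9.0 array. The 3 that fell were Isl1, a LIM factor of motor neurons and also of heart progenitors (-1.15 ± 0.07), Cdkn1c, a cyclin-dependent kinase inhibitor (-0.99 ± 0.07), and Stmn2, a tubulin-binding protein of neurons (-0.36 ± 0.08). The call of Stmn2 was lost without GD8.5 replicate 3 (-0.27, adjusted p = 0.139).

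Some Notch pathway genes, targets and ligands among them, rose as well. Of 32 Notch pathway genes 9 rose and 2 fell (median 0.11), and the targets Hes1, Hes3 and Heyl did not pass. Nrarp, a target that limits Notch signalling, had 4.52 and 4.51 at GD8.5 and 5.81, 5.79, 5.77 and 5.64 at GD9.0 (1.24 ± 0.07). Hes5, the repressor through which Notch holds progenitors, had 3.82 and 3.70 at GD8.5 and 4.93, 4.92, 5.01 and 5.02 at GD9.0 (1.21 ± 0.07), and Mfng, a glycosyltransferase that modifies Notch, had 3.20 and 3.07 at GD8.5 and 4.28, 3.85, 4.09 and 3.92 at GD9.0 (0.90 ± 0.12). The groups did not overlap in any of the 3. The ligands Dll1 (0.51 ± 0.08) and Dll3 (0.57 ± 0.14) rose, and the call of Dll3 was lost without GD8.5 replicate 3 (0.42, adjusted p = 0.185). The falls were Hey2, a target known in the heart (-0.63 ± 0.09), and Hes7, the oscillating repressor of somite formation (-0.69 ± 0.12), which was higher at GD9.0 than in the linear GD8.5 arrays by 0.38.

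The promoter of Hes5 is shown because the gene was among the clearest Notch changes and its sequence holds 2 matches to TGGGAA, the core that the Notch partner Rbpj binds. Sequences here and below come from RefSeq promoter tables on build GRCm38.p6, which span each annotated start and the bases just before it, written 5' to 3' on the strand of the gene, with matches on either strand in capitals. The window lies at chr4:154960673-154960886, plus strand.
Hes5: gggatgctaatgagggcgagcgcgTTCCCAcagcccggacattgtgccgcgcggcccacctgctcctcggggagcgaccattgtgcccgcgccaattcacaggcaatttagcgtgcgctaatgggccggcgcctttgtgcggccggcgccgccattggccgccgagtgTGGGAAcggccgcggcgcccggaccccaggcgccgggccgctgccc
Such matches were no more frequent in the list than elsewhere. Of 32 promoters of 25 Notch pathway genes 8 (25%) held TGGGAA on either strand, against 25.6% of 32851 promoters. The E-boxes CAGATG and CAGCTG, which proneural factors bind, occurred in 12 (24%) and 13 (26%) of 50 promoters of the neurogenesis list, against 17.2% and 16.3%. These are matches of letters and say nothing of binding.

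**Figure D3:**
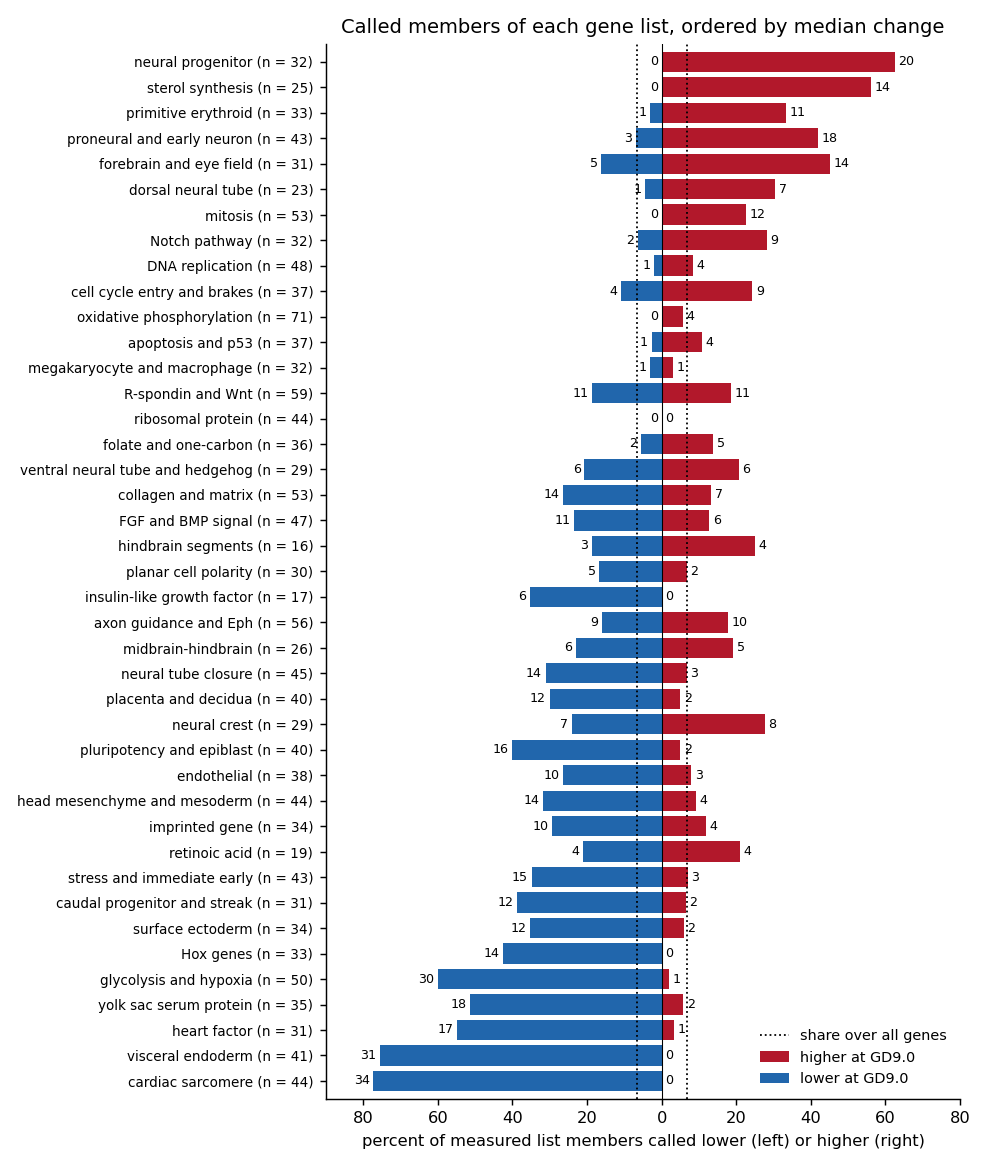
Percent of the measured members of 41 gene lists that rose (right, red) and fell (left, blue) at GD9.0, with the count at the end of each bar and lists ordered by median change. Dotted lines mark the shares over all 18193 genes, 6.78% and 6.74%.

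Forebrain genes were the regional group with the most rises. Of 31 forebrain and eye field genes 14 rose and 5 fell (median 0.24). Dmrta2, a zinc finger factor of the cortical hem and dorsal telencephalon, had 4.58 and 4.39 at GD8.5 and 6.24, 6.05, 6.17 and 6.18 at GD9.0 (1.68 ± 0.07), and its relative Dmrta1 had 3.01 and 3.06 at GD8.5 and 4.34, 4.69, 4.75 and 4.72 at GD9.0 (1.59 ± 0.16). Emx2, a homeobox factor of the dorsal telencephalon, had 3.42 and 3.70 at GD8.5 and 5.06, 4.92, 5.04 and 4.98 at GD9.0 (1.44 ± 0.10). Each of these 3 had all GD9.0 arrays at least 1 unit above the higher GD8.5 array. Otx2, the anterior neural factor, rose by 0.52 ± 0.07, and Lhx2, which the eye field needs, by 0.71 ± 0.07. Of the anterior genes that fell Hesx1, a repressor of the early anterior neural plate and later the pituitary, moved most, at 5.28 and 5.20 at GD8.5 and 2.14, 2.15, 2.20 and 2.11 at GD9.0 (-3.09 ± 0.07). Six3, a factor of the rostral forebrain, changed by -0.38 ± 0.08, a call lost without GD8.5 replicate 4 (-0.33, adjusted p = 0.118). Bmp4, made by the dorsal midline and surface ectoderm, fell by 0.79 ± 0.14. The 5 falls became 3 without GD8.5 replicate 3 or without GD9.0 replicate 1 or 2, and 2 without GD8.5 replicate 4.

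At the border of midbrain and hindbrain, members moved both ways. Of 26 genes 5 rose and 6 fell (median -0.09). Cnpy1, an FGF signalling modulator of this border, was below the background at GD8.5, at 1.57 and 1.13 at GD8.5 and 3.38, 3.40, 3.35 and 2.92 at GD9.0, and at least 3.57-fold higher at GD9.0. En2, an engrailed homeobox factor, had 5.19 and 5.06 at GD8.5 and 6.14, 6.16, 6.19 and 6.38 at GD9.0 (1.09 ± 0.08), and Tfap2b rose by 1.09 ± 0.07. En1, the other engrailed gene, stood at 1.87 and 1.72 at GD8.5 and 1.60, 1.61, 1.71 and 1.83 at GD9.0 and did not pass (-0.11 ± 0.11, adjusted p = 0.61). The border gene Pax2 and the streak gene T were not analysed here. Gbx2, the homeobox factor that sets the hindbrain side, fell from 3.86 to 2.13 (-1.73 ± 0.12), and the FGF targets Spry4 (-0.62 ± 0.12) and Etv5 (-0.55 ± 0.07) fell too. The call of Spry4 was lost without GD8.5 replicate 4 (-0.54, adjusted p = 0.062).

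In the hindbrain list 4 of 16 genes rose and 3 fell (median -0.06). Egr2, the zinc finger factor of rhombomeres 3 and 5, stood at 4.14 and 4.27 at GD8.5 and 1.84, 1.94, 2.01 and 1.82 at GD9.0 (-2.30 ± 0.09, adjusted p = 2.2e-08). Its 4 GD9.0 arrays were more than 2 units below both GD8.5 arrays, and 2 of 2 probe sets passed. Fgf3, a hindbrain FGF ligand, changed by -0.37 ± 0.09 and the ephrin Efnb2 by -0.33 ± 0.07, and both calls were lost without GD8.5 replicate 4 (adjusted p = 0.169 and 0.067), that of Efnb2 also without replicate 3 (0.077). The Eph receptor Epha7 (0.88 ± 0.09), the nuclear receptor Nr2f1 (0.84 ± 0.07) and the ephrin Efnb3 (0.72 ± 0.07) rose. There was 1 fall without GD8.5 replicate 4 and there were 5 without GD9.0 replicate 4.

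Hox genes, which give cells positions in the hindbrain and trunk, fell where they were called in the main comparison. Of 33 measured members 14 fell and 0 rose by limma (median -0.31, and 0 rose at an unadjusted p under 0.05). Of the 33, 21 were above the background at 1 stage or both. With GD8.5 replicates 1 and 2 in place of 3 and 4, 4 were called higher. Hoxc8 had 3.48 and 3.83 at GD8.5 and 0.76, 0.76, 0.95 and 0.95 at GD9.0, with GD9.0 below the background and a fall of at least 4.69-fold. Hoxc4 had 3.02 and 2.70 at GD8.5 and 1.35, 1.42, 1.24 and 1.32 at GD9.0, a fall of at least 2.7-fold, and Hoxb1, the rhombomere 4 gene, had 3.26 and 3.36 at GD8.5 and 2.01, 1.49, 1.95 and 1.73 at GD9.0 (-1.51 ± 0.15). The GD8.5 and GD9.0 arrays did not overlap in any of these 3 genes.

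Falls also outnumbered rises at the tail end. Of 31 caudal progenitor and streak genes 12 fell and 2 rose (median -0.22), the rises being Dll1 and Dll3. Nkx1-2, a homeobox factor of the progenitors of cord and trunk mesoderm, had 4.22 and 3.96 at GD8.5 and 1.13, 1.24, 1.18 and 1.06 at GD9.0, a fall of at least 6.33-fold. Cdx4, a caudal homeobox factor upstream of Hox genes, had 3.17 and 3.54 at GD8.5 and 1.00, 0.98, 1.04 and 0.90 at GD9.0, a fall of at least 3.81-fold. Cyp26a1, which breaks down retinoic acid at the tail end and in the anterior plate, had 5.18 and 5.10 at GD8.5 and 2.27, 2.05, 2.61 and 2.63 at GD9.0 (-2.75 ± 0.14). Without GD8.5 replicate 3 there was 1 rise in place of 2.

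Enzymes and carriers of retinoic acid moved in opposite directions, with 4 of 19 higher and 4 lower (median -0.18). Among enzymes of synthesis, Aldh1a2, that of trunk mesoderm, had 4.06 and 3.91 at GD8.5 and 1.53, 1.63, 1.28 and 1.16 at GD9.0, a fall of at least 5.91-fold. Aldh1a3, that of the eye and nasal region, had 2.54 and 2.26 at GD8.5 and 3.90, 4.04, 4.12 and 4.13 at GD9.0 (1.65 ± 0.10). The cellular binding proteins Crabp2 (0.87 ± 0.07) and Crabp1 (0.49 ± 0.06) rose, and Rbp4, the serum retinol carrier that the yolk sac makes, fell from 7.87 to 4.69 (-3.18 ± 0.12).

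**Figure D4:**
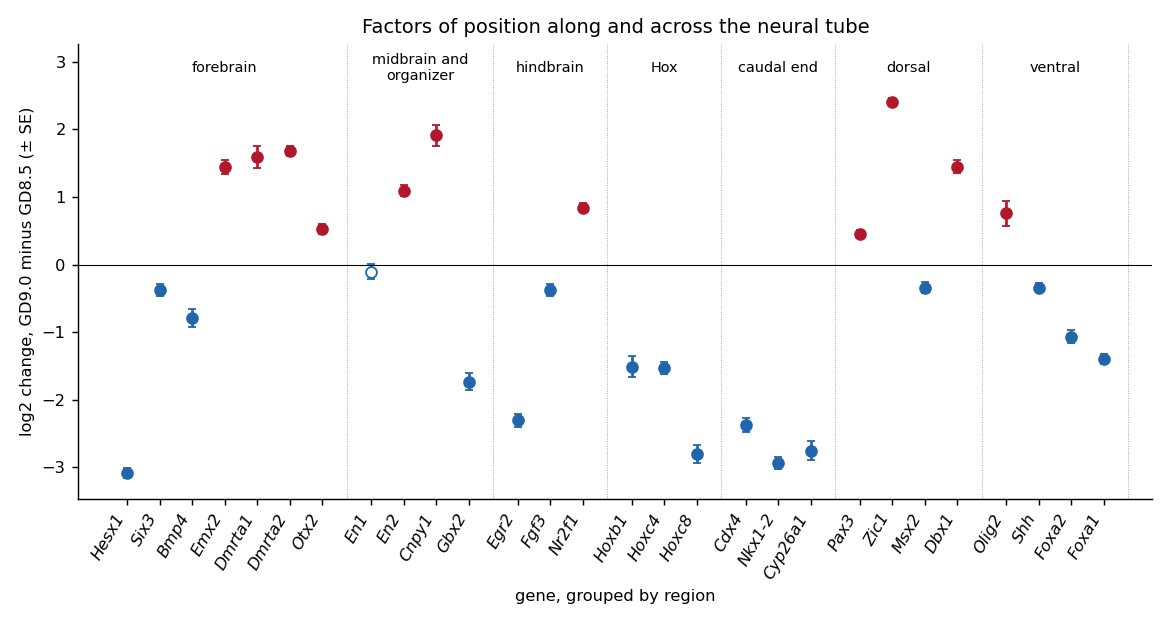
Fitted log2 change (vertical axis, points, with bars of 1 SE) of 28 named genes grouped by region, filled where called, red above 0 and blue below. The forebrain factors Dmrta2, Dmrta1 and Emx2 lie above 0, and all Hox and caudal genes shown lie below. For Cnpy1, Olig2, Hoxc8, Hoxc4, Cdx4 and Nkx1-2, which were below the background at 1 stage, the text gives bounds instead.

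Dorsal genes rose more often than they fell, with 7 of 23 higher and 1 lower (median 0.14). Besides Zic1, Dbx1, a homeobox factor of intermediate progenitors, had 2.46 and 2.41 at GD8.5 and 3.78, 4.06, 3.76 and 3.92 at GD9.0 (1.44 ± 0.10). Pax3, a paired box factor of the dorsal tube and crest, rose by 0.45 ± 0.07 with 3 of 3 probe sets called. Zic2, needed for closure, had 4.14 and 4.14 at GD8.5 and 4.27, 4.22, 4.23 and 4.32 at GD9.0 and did not pass (0.13 ± 0.07, adjusted p = 0.294). The 1 fall was Msx2, a target of BMP (-0.34 ± 0.08), which was higher by 0.066 against the linear arrays and lost its call without GD8.5 replicate 3 (-0.28, adjusted p = 0.14).

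The ventral and hedgehog list was split, with 6 of 29 genes higher and 6 lower (median -0.04). Receptors and guidance genes led the rises. Slit2, a floor plate repellent, had 4.34 and 4.25 at GD8.5 and 5.40, 5.37, 5.39 and 5.39 at GD9.0 (1.09 ± 0.06), and Cdon, a hedgehog co-receptor, had 6.02 and 5.90 at GD8.5 and 6.81, 6.85, 6.88 and 6.73 at GD9.0 (0.85 ± 0.06). Olig2, the factor of motor neuron progenitors, had 1.32 and 1.17 at GD8.5 and 1.79, 1.98, 2.03 and 2.20 at GD9.0, at least 1.49-fold higher over a GD8.5 mean below the background, but its call was lost without either GD8.5 array (adjusted p = 0.07 and 0.15). The ligand and its floor plate partners fell. Shh had 6.15 and 6.12 at GD8.5 and 5.83, 5.71, 5.83 and 5.83 at GD9.0 (-0.34 ± 0.06), the target and receptor Ptch1 changed by -0.67 ± 0.06 (1 of 3 probe sets), Foxa2, a forkhead factor of floor plate and endoderm, by -1.07 ± 0.09, and its relative Foxa1 by -1.40 ± 0.08. The call of Shh was lost with all 12 arrays and with GD8.5 replicates 1 and 2 in place of 3 and 4. Foxa1 and Foxa2 are also in the visceral endoderm list, where 31 of 41 genes fell, and the part of endoderm in their fall was not tested.

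Wnt pathway genes moved both ways. Of 59 genes of the R-spondin and Wnt list 11 rose and 11 fell (median -0.01), and without GD8.5 replicate 4 the 11 rises became 7. Ligands and agonists held the largest rises, Rspo2, Rspo1 and Wnt8b. Wnt8b had 3.14 and 3.18 at GD8.5 and 5.35, 5.21, 5.39 and 5.34 at GD9.0, and Rspo1 2.25 and 2.08 at GD8.5 and 4.53, 4.31, 4.45 and 4.24 at GD9.0, with no overlap in either. The largest falls were the receptor Fzd5 (-1.01 ± 0.12, 1 of 2 probe sets), the antagonist Dkk1 (-0.81 ± 0.07, 1 of 2 probe sets) and the ligand Wnt2, at 2.12 and 2.24 at GD8.5 and 1.22, 1.29, 1.35 and 1.25 at GD9.0, at least 1.68-fold lower.

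FGF and BMP genes fell more often than they rose, with 11 of 47 lower and 6 higher (median -0.06). Without GD8.5 replicate 4 the 6 rises became 3. The ligand Bmp2, made in surface ectoderm and heart, had 4.63 and 4.52 at GD8.5 and 3.26, 3.20, 3.14 and 3.24 at GD9.0 (-1.37 ± 0.12). Smad6, an inhibitor of BMP signalling, had 4.22 and 3.99 at GD8.5 and 2.85, 3.03, 2.66 and 3.10 at GD9.0 (-1.20 ± 0.14), and Fst, follistatin, an activin antagonist, changed by -0.86 ± 0.10. Receptor and intracellular genes led the rises: the FGF receptor Fgfr3 (0.63 ± 0.10), the helix-loop-helix inhibitor Id4 (0.52 ± 0.10) and the intracellular Fgf13 (0.50 ± 0.08). The call of Id4 was lost without GD8.5 replicate 4 (0.34, adjusted p = 0.068).

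Neural crest genes, active in the migrating cells that leave the dorsal tube, were split, with 8 of 29 higher and 7 lower (median -0.13). The falls became 3 without GD8.5 replicate 3 and 4 without replicate 4. The rises were led by genes of cranial crest and its mesenchyme, Alx1, a homeobox factor of the frontonasal region, at 3.22 and 3.01 at GD8.5 and 4.32, 4.38, 4.68 and 4.41 at GD9.0 (1.33 ± 0.11), and Tfap2b, at 3.90 and 3.83 at GD8.5 and 5.10, 4.95, 4.88 and 4.89 at GD9.0. Among genes that specify crest, Sox9 changed by -0.71 ± 0.12, Foxd3 by -0.60 ± 0.15 and Tfap2a by -0.53 ± 0.08. Foxd3 had 2.72 and 2.10 at GD8.5 and 1.69, 1.81, 1.96 and 1.77 at GD9.0, with GD8.5 replicate 3 well above replicate 4, and its call was lost without replicate 3 (-0.29, adjusted p = 0.252) or without GD9.0 replicate 1 (adjusted p = 0.051). Sox10, the factor of migrating crest, had 4.19 and 4.19 at GD8.5 and 3.78, 3.70, 3.67 and 3.74 at GD9.0 (-0.46 ± 0.11), was higher by 0.27 against the linear arrays, and lost its call without either GD8.5 array (adjusted p = 0.106 and 0.111).

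Genes of the neural tube closure list, which also holds epithelial and related genes, fell more often than they rose. Of 45 closure genes 14 fell and 3 rose (median -0.11), with 6 falls without GD8.5 replicate 3. The largest falls were in epithelial genes. They were the protease inhibitor Spint1, at 4.37 and 4.34 at GD8.5 and 3.63, 3.55, 3.57 and 3.43 at GD9.0 (-0.81 ± 0.10), the cadherin Cdh1, with means of 6.70 at GD8.5 and 5.95 at GD9.0 (-0.75 ± 0.08), and the membrane protease Prss8, at 3.89 and 3.48 at GD8.5 and 3.11, 2.82, 3.18 and 2.78 at GD9.0 (-0.72 ± 0.16). The call of Prss8 was lost without GD8.5 replicate 3 (adjusted p = 0.164). The neural cadherin Cdh2 had 7.89 and 7.82 at GD8.5 and 8.21, 8.32, 8.11 and 8.22 at GD9.0 (0.36 ± 0.07). The cadherins went in opposite directions, and the groups did not overlap in either. Over all genes 17.6% had no overlap with GD9.0 above and 16.9% with GD8.5 above. The call of Cdh2 was lost without GD8.5 replicate 4 (adjusted p = 0.06). Nuak2, a kinase of cell shape, rose by 0.47 ± 0.08. The grainyhead factors gave no firm direction. Grhl2 changed by -0.32 ± 0.09 with 0 of its 4 probe sets called when all probe sets were tested, was higher by 0.14 against the linear arrays and lost its call without either GD8.5 array (adjusted p = 0.249 and 0.071) and without GD9.0 replicate 1 or 4 (0.064 and 0.051). Grhl3 had 1.92 and 1.61 at GD8.5 and 1.86, 2.07, 1.87 and 1.87 at GD9.0 and did not pass (0.15 ± 0.10).

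Planar polarity genes, which narrow and lengthen the plate, mostly did not pass, with 2 of 30 higher and 5 lower (median -0.07). In all 23.3% were called, against 13.5% of all genes, and the rises were near the 6.78% of all genes that rose. Prickle1, a core component, had 4.81 and 4.96 at GD8.5 and 3.14, 3.16, 3.81 and 3.59 at GD9.0 (-1.46 ± 0.18), with 1 of 3 probe sets called. Dact1, a Dishevelled partner, changed by -0.73 ± 0.09, and Gpc3, a heparan sulphate proteoglycan, by -0.58 ± 0.06. The receptor Fzd3 (0.48 ± 0.05) and the cadherin Celsr2 (0.44 ± 0.09) rose. The call of Celsr2 was lost without GD8.5 replicate 3 (0.41, adjusted p = 0.061), which left 1 rise.

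Surface ectoderm, the sheet that joins the folds, was represented by 34 genes, of which 12 fell and 2 rose (median -0.22). The tight junction gene Cldn7 had 4.83 and 4.72 at GD8.5 and 3.38, 3.32, 3.28 and 3.28 at GD9.0 (-1.46 ± 0.09). The simple epithelial keratins Krt8 and Krt18, partners in 1 filament and also expressed in endoderm, changed by -1.29 ± 0.09 and -1.14 ± 0.08. In all 3 the groups were separate. The stratified epithelium factor Trp63 had 1.39 and 1.48 at GD8.5 and 2.23, 2.35, 2.32 and 2.46 at GD9.0 (0.90 ± 0.09, 1 of 4 probe sets), and the keratin Krt7 rose by 0.62 ± 0.10.

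Guidance genes were evenly split, with 10 of 56 higher and 9 lower (median -0.09), and 5 lower without GD8.5 replicate 3. The netrin receptor Dcc, of commissural axons, had 2.38 and 2.46 at GD8.5 and 4.01, 3.86, 4.06 and 4.10 at GD9.0 (1.59 ± 0.08). The Eph receptor Epha3 was below the background at GD8.5, with a mean of 1.28, and reached 2.72 at GD9.0, at least 2.45-fold higher. The semaphorin receptor Nrp1, also a receptor of vascular endothelium, had 7.07 and 6.98 at GD8.5 and 5.65, 5.72, 5.89 and 6.11 at GD9.0 (-1.18 ± 0.12, 4 of 4 probe sets). Sema3e, a ligand of vessels and axons, changed by -0.92 ± 0.10 and the ephrin Efna1 by -0.66 ± 0.19. The call of Efna1 was lost without GD8.5 replicate 3 (-0.38, adjusted p = 0.365) and without GD9.0 replicate 1, 3 or 4 (adjusted p = 0.056, 0.086 and 0.088).

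Among the 41 lists, chosen with earlier results of these data known, the largest effects were in tissues next to the neural tube. Of 44 cardiac sarcomere genes 34 fell and 0 rose by limma, with a median change of -0.86, and 0 rose at an unadjusted p under 0.05. Tnnt2, cardiac troponin T, had 6.42 and 6.31 at GD8.5 and 3.04, 2.50, 2.69 and 2.47 at GD9.0 (-3.69 ± 0.21), and Tnnc1, troponin C, had 6.57 and 6.40 at GD8.5 and 3.00, 3.09, 2.94 and 2.88 at GD9.0 (-3.51 ± 0.09). All GD9.0 arrays were more than 3 units below both GD8.5 arrays in each. The call of Tnnt2 was lost when probe sets ending in _s_at, _x_at or _a_at were left out. The alpha cardiac actin Actc1 had 9.25 and 9.23 at GD8.5 and 6.31, 6.35, 6.45 and 6.45 at GD9.0 (-2.85 ± 0.11), so it was far above the background at GD9.0 as well. Heart regulators fell less uniformly. Of 31 heart factors 17 fell and 1 rose (median -0.52), with Hand2, a factor of the heart tube and branchial arches, at 4.60 and 4.87 at GD8.5 and 1.41, 1.73, 1.62 and 1.62 at GD9.0 (-3.14 ± 0.10, 1 of 3 probe sets) and Gata6, of heart and endoderm, at 4.17 and 4.35 at GD8.5 and 1.91, 1.75, 1.57 and 1.81 at GD9.0 (-2.50 ± 0.10). The rise was Hey1, a Notch target (0.54 ± 0.08).

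Falls prevailed in the yolk sac and endoderm lists too. Of 35 yolk sac serum protein genes 18 fell and 2 rose (median -0.43), and of 41 visceral endoderm genes 31 fell and 0 rose by limma (median -0.85; 0 rose at an unadjusted p under 0.05). Apoa1 had 7.40 and 7.33 at GD8.5 and 3.38, 3.40, 3.53 and 3.11 at GD9.0, and Apoc2 had 7.10 and 6.98 at GD8.5 and 2.86, 3.42, 3.30 and 3.28 at GD9.0. Cubn, the endocytic receptor that takes up maternal nutrients, had 6.31 and 6.13 at GD8.5 and 2.82, 2.54, 2.35 and 2.74 at GD9.0 (-3.61 ± 0.12). Rhox5, an X-linked homeobox gene of extraembryonic endoderm, had 6.51 and 5.72 at GD8.5 and 3.04, 2.86, 2.72 and 2.73 at GD9.0 (-3.28 ± 0.19), with GD8.5 replicate 3 above replicate 4 and both above all GD9.0 arrays. Afp, the fetal serum protein, had 8.75 and 8.74 at GD8.5 and 6.68, 6.84, 6.83 and 6.80 at GD9.0 (-1.96 ± 0.11), a smaller fall from a high level. The exceptions were Serpinf1, a secreted serpin of mesenchyme, at 3.68 and 3.37 at GD8.5 and 5.28, 5.30, 5.24 and 5.30 at GD9.0 (1.76 ± 0.08), and Vtn, vitronectin (1.02 ± 0.16).

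Promoters of genes with large falls are shown because a short sequence of the tissue's known factor was more frequent in their lists than over all promoters. In the yolk sac list 11 of 31 promoters (35.5%) held GTTAAT, a core site of Hnf1 factors, on either strand, against 7.10% of 32851. In the sarcomere list 17 of 48 (35.4%) held CATTCC, the core site of Tead factors, against 14.7%. Of the promoters of called genes alone 23.8% and 38.1% held the match, so in the yolk sac list the share was lower among the called genes than over the list. The windows are at chr5:90490569-90490654, plus strand (Afp), chr7:19677985-19678070, minus strand (Apoc2), chr1:135836267-135836333, plus strand (Tnnt2) and chr14:31208214-31208299, plus strand (Tnnc1).
Afp: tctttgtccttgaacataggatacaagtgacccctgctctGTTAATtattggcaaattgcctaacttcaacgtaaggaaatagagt
Apoc2: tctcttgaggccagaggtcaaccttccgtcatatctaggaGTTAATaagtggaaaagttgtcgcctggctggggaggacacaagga
Tnnt2: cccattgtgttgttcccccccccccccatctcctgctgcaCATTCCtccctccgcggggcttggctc
Tnnc1: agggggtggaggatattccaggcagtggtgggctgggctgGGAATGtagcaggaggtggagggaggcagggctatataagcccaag
Capitals mark GTTAAT in the first pair and CATTCC, or GGAATG where it lies on the other strand, in the second. A match is not evidence that the factor binds there.

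Placenta and decidua genes fell where they moved far, with 12 of 40 lower and 2 higher (median -0.12), and 19 of the 40 were above the background. Htra1, a secreted protease, had 5.71 and 5.64 at GD8.5 and 2.93, 2.72, 2.96 and 2.77 at GD9.0 (-2.83 ± 0.08). Cryab, a small heat shock protein also of heart, had 5.32 and 5.41 at GD8.5 and 2.62, 2.70, 2.39 and 2.44 at GD9.0 (-2.83 ± 0.15). The call of Cryab was lost when probe sets ending in _s_at, _x_at or _a_at were left out. The rises were Lum, a matrix proteoglycan (0.89 ± 0.06), and Wnt4 (0.41 ± 0.09), and the call of Wnt4 was lost without GD8.5 replicate 4 (0.34, adjusted p = 0.126). Prl3d1, a marker of trophoblast giant cells, was not analysed here.

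Of 33 primitive erythroid genes 11 rose, 1 fell and 21 did not pass (median 0.27). Among globins of the embryo, Hba-x had 7.52 and 7.42 at GD8.5 and 9.48, 9.43, 9.38 and 9.41 at GD9.0, and Hbb-y had 9.92 and 9.84 at GD8.5 and 11.67, 11.79, 11.66 and 11.75 at GD9.0, with changes of 1.95 ± 0.06 and 1.84 ± 0.06. Hbb-bh1, the early beta-like globin, changed by 1.28 ± 0.07, and Slc4a1, the anion exchanger of the red cell membrane, by 1.42 ± 0.12. The arrays of each stage lay within 0.5 of each other in these 4 genes and did not overlap. The adult beta globin Hbb-b2 fell by 0.57 ± 0.09, but was higher at GD9.0 by 0.68 against the linear arrays, and globin genes are near-identical enough that probes can be shared.

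Vessel and blood cell genes did not move together. Of 38 endothelial genes 10 fell and 3 rose (median -0.14), with 5 falls without GD8.5 replicate 3. Sox17, a factor of endothelium and endoderm, had 3.91 and 3.80 at GD8.5 and 2.27, 2.17, 2.05 and 1.99 at GD9.0 (-1.73 ± 0.12), Etv2, the early regulator of endothelial fate, had 4.09 and 4.01 at GD8.5 and 2.76, 2.89, 2.66 and 2.69 at GD9.0 (-1.30 ± 0.14), and the apelin receptor Aplnr changed by -0.68 ± 0.11 (1 of 2 probe sets). The surface sialomucins Cd34, at 3.32 and 3.33 at GD8.5 and 4.54, 4.57, 4.22 and 4.42 at GD9.0 (1.12 ± 0.12), and Emcn (0.74 ± 0.06) rose, as did Cldn5, a junction protein of vessels (0.47 ± 0.12), whose call was lost without either GD8.5 array (adjusted p = 0.153 and 0.085). The defining genes Kdr (-0.20 ± 0.09), Cdh5 (-0.41 ± 0.12) and Pecam1 (0.13 ± 0.08) did not pass. Cdh5 passed without GD8.5 replicate 3 (-0.60, adjusted p = 0.025) and without GD9.0 replicate 1 (-0.49, adjusted p = 0.017). Of 32 megakaryocyte and macrophage genes 1 rose and 1 fell (6.25%, against 13.5% of all genes). Plek, of platelets, stood at 1.15 and 1.72, at least 1.23-fold higher, a call lost without GD8.5 replicate 4 (adjusted p = 0.095), and Csf1r, the macrophage growth factor receptor, changed by -0.77 ± 0.10.

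Mesenchyme genes moved both ways. Of 44 head mesenchyme and mesoderm genes 14 fell and 4 rose (median -0.14), with 9 falls without GD8.5 replicate 3. The rises were led by genes of cranial and facial mesenchyme, Alx1 and Prrx1, a homeobox factor, at 4.35 and 4.13 at GD8.5 and 5.41, 5.36, 5.44 and 5.29 at GD9.0 (1.14 ± 0.08, 3 of 6 probe sets). Foxc2, a forkhead factor of paraxial mesoderm, had 4.92 and 4.98 at GD8.5 and 3.17, 2.97, 3.29 and 3.13 at GD9.0 (-1.81 ± 0.11), and fell with Hand2 and Aldh1a2. Twist1, a general mesenchyme factor, had 6.07 and 5.93 at GD8.5 and 6.17, 6.05, 6.12 and 6.16 at GD9.0 and did not pass (0.13 ± 0.09).

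Matrix genes also moved both ways. Of 53 genes 7 rose and 14 fell (median -0.05), and 9 or 8 fell without GD8.5 replicate 3 or 4. Col3a1 had 6.24 and 6.35 at GD8.5 and 8.37, 8.35, 8.49 and 8.38 at GD9.0, and Col11a1, a minor fibrillar collagen, had 3.82 and 3.17 at GD8.5 and 5.12, 5.19, 5.19 and 5.13 at GD9.0 (1.66 ± 0.13). Has2, a hyaluronan synthase of cardiac jelly and mesenchyme, had 6.46 and 6.41 at GD8.5 and 5.20, 5.25, 5.42 and 5.28 at GD9.0 (-1.15 ± 0.09), and Fn1, fibronectin, had 8.15 and 8.04 at GD8.5 and 7.23, 7.15, 7.16 and 7.14 at GD9.0 (-0.92 ± 0.07). Dcn, decorin, changed by -0.83 ± 0.17, a call lost without GD8.5 replicate 4 (-0.64, adjusted p = 0.112).

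Most genes of glycolysis and of the response to low oxygen fell. Among 50 such genes 30 were called lower and 1 higher (median -0.32). Epas1, a hypoxia-inducible factor abundant in endothelium, had 4.60 and 4.38 at GD8.5 and 2.33, 2.28, 2.17 and 2.76 at GD9.0 (-2.10 ± 0.14, 1 of 2 probe sets), Adm, the peptide adrenomedullin, had 3.69 and 3.50 at GD8.5 and 2.09, 1.82, 1.53 and 1.84 at GD9.0 (-1.78 ± 0.13), and Pfkp, a phosphofructokinase, had 4.53 and 4.41 at GD8.5 and 2.93, 3.12, 3.30 and 3.19 at GD9.0 (-1.34 ± 0.12). The groups were separate in all 3. The rise was Ldhb, the lactate dehydrogenase subunit of oxidative tissues, at 6.59 and 6.66 at GD8.5 and 7.18, 7.10, 7.17 and 7.15 at GD9.0 (0.53 ± 0.07, 4 of 4 probe sets). The heart and yolk sac marker means fell over the same step, from 7.42 to 4.07 and from 7.85 to 4.64, and their part in this group was not tested.

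The hypoxia response core ACGTG was frequent in the promoters of this list. On either strand it was in 36 of 65 promoters of 45 genes (55.4%), against 19.6% of 32851 promoters, and in 58.3% of the promoters of its called genes. It is also part of CACGTG, the E-box of Myc and other factors. The windows below, of a glycolytic enzyme (Pgk1), a mitochondrial protein of the hypoxia response (Bnip3) and a glucose transporter (Slc2a1), are at chrX:106186910-106187013, plus strand, chr7:138909569-138909654, minus strand, and chr4:119108669-119108744, plus strand.
Pgk1: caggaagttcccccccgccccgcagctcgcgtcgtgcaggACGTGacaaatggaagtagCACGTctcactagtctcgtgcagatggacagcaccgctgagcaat
Bnip3: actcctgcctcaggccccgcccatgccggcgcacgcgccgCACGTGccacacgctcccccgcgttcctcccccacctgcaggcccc
Slc2a1: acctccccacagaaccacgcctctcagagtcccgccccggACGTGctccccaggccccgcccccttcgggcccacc
Capitals mark ACGTG, or CACGT where it lies on the other strand, and in Bnip3 both overlap in 1 E-box. Pgk1, Bnip3 and Slc2a1 were among the 30 genes that fell.

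Oxidative phosphorylation genes gave few calls in the main comparison. Of 71 genes 4 rose and 0 fell by limma (5.63% called, against 13.5% of all genes; 4 fell at an unadjusted p under 0.05), and the median change was 0.01. The mean level of the list was 8.66 ± 0.009 (SD, n = 2) at GD8.5 and 8.67 ± 0.023 (n = 4) at GD9.0. With GD8.5 replicates 1 and 2 in place of 3 and 4, 22 were called higher and 6 lower, against 4116 and 2915 of all genes. With a limma spread that was robust and followed intensity, 11 were higher and 8 lower, against 1697 and 1559 of all genes. The largest rises were in Sdha, a subunit of complex II (0.21 ± 0.06), and the ATP synthase subunits Atp5a1 (0.20 ± 0.06) and Atp5b (0.20 ± 0.06). Without GD8.5 replicate 3 or 4, or GD9.0 replicate 2 or 3, there were 0 rises by limma. There was 1 without GD9.0 replicate 1 and there were 2 without GD9.0 replicate 4. The adjusted p for these 3 genes was 0.267, 0.203 and 0.222 without GD8.5 replicate 3.

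Most sterol synthesis genes rose. Of 25 genes 14 rose and 0 fell by limma (median 0.30), and 2 fell at an unadjusted p under 0.05. In 12 of the 14 both linear GD8.5 arrays were also below all GD9.0 arrays. This held for 78.2% of all genes that rose at levels above 5, and 72.9% at levels above 2. Hmgcs1, which makes the precursor that the rate-limiting reductase uses, had 8.66 and 8.60 at GD8.5 and 9.26, 9.29, 9.33 and 9.40 at GD9.0 (0.69 ± 0.06, 4 of 5 probe sets). Msmo1, a later demethylation enzyme, had 6.75 and 6.70 at GD8.5 and 7.28, 7.32, 7.46 and 7.40 at GD9.0 (0.64 ± 0.08), and Tm7sf2, a sterol reductase, had 1.96 and 1.98 at GD8.5 and 2.80, 2.80, 2.56 and 2.65 at GD9.0 (0.73 ± 0.09). No GD8.5 array overlapped the GD9.0 arrays in these. The call of Msmo1 was lost when probe sets ending in _s_at, _x_at or _a_at were left out. The sterol response core CACCCCA was in 2 of 28 promoters of the list (7.14%), against 7.62% of all promoters.

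**Figure D5:**
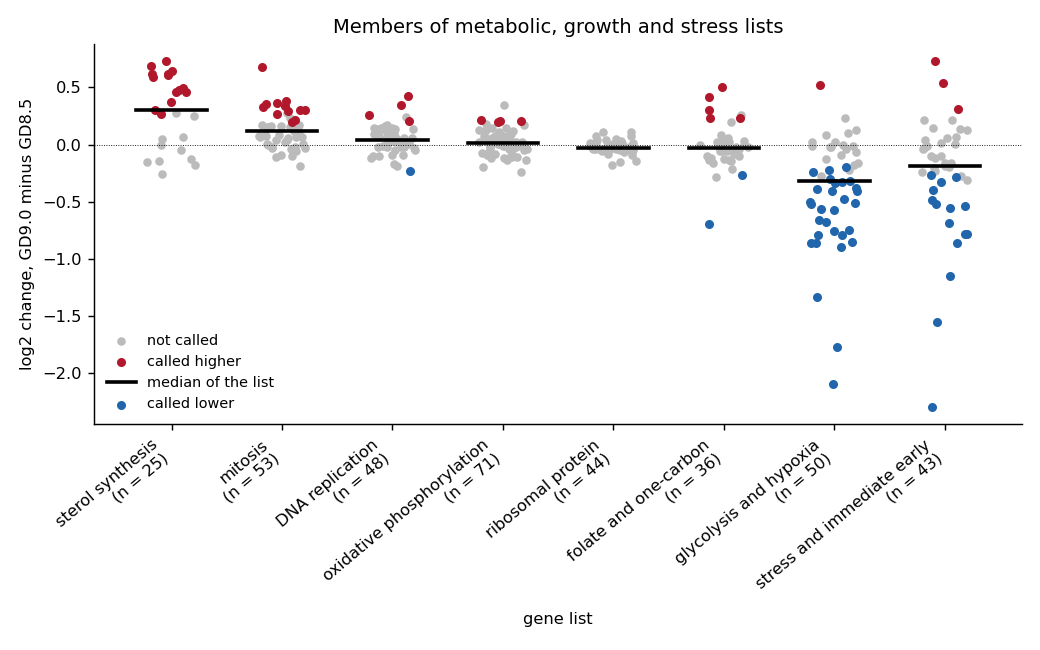
Log2 change (vertical axis) of every measured member of 8 gene lists, 1 point per gene, red or blue where called, with the list median as a black line. The glycolysis members lie mostly below 0 (median -0.32), the sterol members mostly above (median 0.30), and the ribosomal members close to 0 (median -0.03).

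Folate and one-carbon genes, which matter because folate lowers the risk of open tubes, had 5 of 36 higher and 2 lower (19.4%, against 13.5% of all genes, median -0.03). Without GD8.5 replicate 3 there were 2 rises and 0 falls, and without replicate 4 there was 1 rise. Tyms, thymidylate synthase, had 2.05 and 2.14 at GD8.5 and 2.51, 2.59, 2.64 and 2.66 at GD9.0 (0.50 ± 0.12), but was lower by 0.06 against the linear arrays and lost its call without either GD8.5 array (adjusted p = 0.148 and 0.084). Ggh, a folate hydrolase, had 3.58 and 3.44 at GD8.5 and 3.94, 3.93, 3.94 and 3.88 at GD9.0 (0.41 ± 0.07), and Dld, a subunit of the glycine cleavage system, changed by 0.30 ± 0.06, a call lost without replicate 4 (adjusted p = 0.088). The receptor Folr1 had 3.84 and 3.16 at GD8.5 and 2.78, 2.59, 3.01 and 2.83 at GD9.0 (-0.70 ± 0.17), with GD8.5 replicate 3 well above replicate 4, and its call was lost without replicate 3 (adjusted p = 0.247). Psph, a serine synthesis enzyme, changed by -0.27 ± 0.06, also lost without replicate 3 (adjusted p = 0.115) or 4 (0.085).

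The mitosis list had rises and no falls in the main comparison. Of 53 mitosis genes 12 rose and 0 fell by limma (median 0.12; also 0 fell at an unadjusted p under 0.05), and 7 or 6 rose without GD8.5 replicate 3 or 4. Cdc25b, the phosphatase that opens mitosis, had 4.05 and 3.64 at GD8.5 and 4.48, 4.50, 4.52 and 4.61 at GD9.0 (0.68 ± 0.11). Mki67, a marker of cycling cells, had 8.68 and 8.66 at GD8.5 and 9.01, 9.00, 9.08 and 9.12 at GD9.0 (0.38 ± 0.06), and Kif4, a chromosome kinesin, changed by 0.36 ± 0.06. With GD8.5 replicates 1 and 2 in place of 3 and 4, 19 mitosis genes were called higher and 7 lower, against 4116 and 2915 of all genes. Few DNA replication genes passed, with 4 of 48 higher and 1 lower (10.4%, against 13.5% of all genes). There were 2 rises and 0 falls without either GD8.5 array, and 2 rises without GD9.0 replicate 1 or 4. Tk1, thymidine kinase, changed by 0.42 ± 0.07, Cdc7, an origin-firing kinase, by 0.35 ± 0.06 and Mcm3, a helicase subunit, by -0.24 ± 0.06, a call lost without either GD8.5 array (adjusted p = 0.198 and 0.05). Of 37 genes of cell cycle entry and its brakes 9 rose and 4 fell (median 0.04), with 2 rises without GD8.5 replicate 4. They included Btg2, an antiproliferative gene of neurogenic progenitors (0.54 ± 0.11), and Mycl (0.41 ± 0.08), while Cdkn1c, the stress-responsive Gadd45a (-0.79 ± 0.12) and Myc (-0.52 ± 0.09) fell. The call of Btg2 was lost without GD8.5 replicate 3 (adjusted p = 0.07) and that of Mycl without replicate 4 (adjusted p = 0.072).

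Ribosomal protein genes gave no calls in the main comparison. Of 44 measured members 0 were called by limma, against 13.5% of all genes. At an unadjusted p under 0.05 in limma 0 were higher and 1 lower. With GD8.5 replicates 1 and 2 in place of 3 and 4, 4 were called higher and 9 lower. The list mean was 10.3 in every array of both stages, with a median change of -0.03. Apoptosis genes were at the background share, with 4 of 37 higher and 1 lower (13.5%). Bcl2, an inhibitor of cell death, had 3.26 and 3.35 at GD8.5 and 4.24, 3.94, 3.96 and 3.92 at GD9.0 (0.71 ± 0.10, 1 of 5 probe sets), and Pmaip1, a death-promoting target of p53, changed by -0.48 ± 0.09, a call lost without GD8.5 replicate 3 (-0.37, adjusted p = 0.075).

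Pluripotency and epiblast genes fell more often than they rose. Of 40 genes 16 fell and 2 rose (median -0.14). Eras, the constitutively active Ras of stem cells, had 6.42 and 6.42 at GD8.5 and 4.46, 4.24, 4.49 and 4.22 at GD9.0 (-2.07 ± 0.09). L1td1 and Tdgf1, both of the epiblast, reached the background at GD9.0 and were at least 2.31-fold and 1.71-fold lower. The rises were Otx2, at 7.70 and 7.69 at GD8.5 and 8.20, 8.16, 8.26 and 8.25 at GD9.0, and Trh, a hormone precursor gene, at 2.89 and 2.79 at GD8.5 and 3.74, 3.60, 3.71 and 3.72 at GD9.0 (0.85 ± 0.10).

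Imprinted genes, expressed from 1 parental copy, fell more often than they rose. Of 34 imprinted genes 10 fell and 4 rose (median -0.18), with 6 falls without GD8.5 replicate 4 and 1 rise without either GD8.5 array. Phlda2, a maternally expressed gene that restrains the placenta, had 7.12 and 7.24 at GD8.5 and 3.78, 3.83, 3.96 and 4.00 at GD9.0 (-3.29 ± 0.11), more than 3 units apart. Dlk1, a paternally expressed Notch-like protein, had 3.76 and 3.70 at GD8.5 and 4.81, 4.70, 4.46 and 4.81 at GD9.0 (0.96 ± 0.11), and the other rises named by the rule, Nnat (0.29 ± 0.06) and Plagl1 (0.27 ± 0.06), lost their calls without either GD8.5 array (adjusted p of 0.109 and 0.089 without replicate 3). The call of Dlk1 was lost when probe sets ending in _s_at, _x_at or _a_at were left out. Of 17 insulin-like growth factor genes 6 fell and 0 rose by limma (median -0.08), and 2 rose at an unadjusted p under 0.05. The ligand Igf2 had 8.94 and 8.96 at GD8.5 and 7.85, 7.91, 7.93 and 7.82 at GD9.0 (-1.07 ± 0.07), its clearing receptor Igf2r 7.14 and 7.19 at GD8.5 and 6.53, 6.45, 6.49 and 6.48 at GD9.0 (-0.68 ± 0.06), and the binding protein Igfbp3 changed by -0.62 ± 0.11. Igf2 is also abundant in yolk sac and heart, whose markers fell.

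Stress and immediate early genes fell more often than they rose, with 15 of 43 lower and 3 higher (median -0.19). The immediate early factor Fos had 4.39 and 3.97 at GD8.5 and 3.13, 3.24, 3.01 and 2.75 at GD9.0 (-1.15 ± 0.17), and the small heat shock gene Hspb1, also of heart muscle, had 4.33 and 4.69 at GD8.5 and 2.95, 2.89, 2.90 and 3.04 at GD9.0 (-1.56 ± 0.09). The inducible chaperone Hspa1b went the other way, at 3.85 and 4.02 at GD8.5 and 4.61, 4.67, 4.64 and 4.75 at GD9.0 (0.73 ± 0.08, 3 of 3 probe sets), as did Asns, a target of the amino acid response (0.31 ± 0.06), whose call was lost without GD8.5 replicate 4 (adjusted p = 0.086).

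The step was then set against the next one, from GD9.0 to GD9.5, by the difference of both changes within the same fit, which uses the GD9.0 arrays on both sides. This difference passed for 2118 genes (11.6%), 1268 with a more positive second change (6.97%) and 850 with a more negative one (4.67%). Genes of 1 kind fell steeply before GD9.0, and their second change was smaller or positive. Prl8a2 fell by 4.95 ± 0.10 and then changed by 1.12 ± 0.08 (difference 6.07 ± 0.16, adjusted p = 1.1e-08). Ankrd1 changed by -4.16 ± 0.10 and then -0.54 ± 0.08, Hoxb5os by -3.77 ± 0.14 and -0.03 ± 0.11, and Srgn, a proteoglycan of secretory granules, by -3.40 ± 0.12 and 0.21 ± 0.10. The second change of Hoxb5os and Srgn did not pass, while Prl8a2 rose again and Ankrd1 fell further. Ankrd1, Hoxb5os and Srgn had GD9.0 means of 1.67, 1.76 and 1.53, close to the background of 1.42. Afp was the reverse, with the larger part of its fall after GD9.0 (-1.96 ± 0.11, then -5.26 ± 0.09).

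Genes of another kind rose before GD9.0 and not after it. Dmrta1 rose by 1.59 ± 0.16 and then changed by -0.92 ± 0.13 (difference -2.51 ± 0.24, adjusted p = 8.6e-05). Rnf152, a lysosomal ubiquitin ligase, changed by 1.67 ± 0.13 and -0.79 ± 0.11, and Filip1, a filamin-binding protein, by 2.10 ± 0.18 and -0.31 ± 0.15. The second change of Filip1 did not pass. Genes that rose in both steps included Rspo2, which rose by 2.78 ± 0.11 and then changed by 0.92 ± 0.09. Neurod1, at least 6.11-fold up before GD9.0, changed by 1.55 ± 0.06 after it, and Zic1 by 0.91 ± 0.05. By list, the difference was positive in 15 and negative in 3 of 43 neurogenesis genes, whose median change was 0.25 in this step and 0.94 in the next. In the mitosis list 0 were positive and 10 of 53 negative, with medians of 0.12 and -0.06. Of 50 glycolysis genes 15 were positive and 3 negative, with medians of -0.32 and -0.14, and of 44 sarcomere genes 20 and 1, with -0.86 and -0.32.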

How the data were processed

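Per the labels' protocols, neural tube RNA was isolated with a kit that keeps small RNA, and 100 ng per sample was reverse transcribed, fragmented and biotin labelled. Per the submitters' processing notes the tools were RMA, GCRMA and Affymetrix Expression Console 1.2.1. The notes assign none of them to a column, and the method behind each column is therefore unknown. The authors deposited log2 values for 10 arrays and linear intensity values for GD8.5 replicates 1 and 2. The linear arrays served only for the check of direction and for alternatives, after log2 and quantile normalization. Their target was the 10 log2 arrays in the check, and all 12 arrays were normalized together in the alternatives.

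Genes were taken from probe sets that the platform annotation assigned to 1 gene (34945 of 45037). The brightest probe set stood for each of 18193 genes. The 10 log2 arrays, GD9.5 included so that all stages share an estimate of spread, entered a limma model (version 3.58.1, R version 4.3.3) of stage means with 7 residual degrees of freedom, and p-values were adjusted by Benjamini-Hochberg over all genes. Errors of changes are SE of this fit. Where a stage mean was at or below 1.42, the fold was computed against that level and is a lower bound. The number of arrays limits the precision. On simulated data with 200 changed genes among 18193, the GD9.0 against GD8.5 test recovered 18% of changes of 1.2-fold, 68% of 1.5-fold, 96% of 2-fold and 100% of 4-fold, with 5 false calls. The data gave 2460 calls, and the adjusted cutoff depends on the share of changed genes. Recovery and false calls in the data can therefore differ from these values.

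The 41 gene lists (1541 of 1673 memberships measured, 1377 genes, 140 of them in more than 1 list) and the rule for named genes were chosen with earlier results of these data known. The rule took the 8 largest rises and 8 largest falls with separate arrays, up to 3 rises and 3 falls per list, a fixed set of identity genes, and the 4 largest differences between intervals in each direction. Markers of other tissues were added to these. Equal replicate numbers were not taken as pairs. Alternatives were other array sets, scalings, probe set rules, spread models, array weights, a replicate block and leaving out each array. The sterol motif was chosen after the counts had been seen.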

Additional observations from a re-analysis of the deposited data

Results flagged for a closer look

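Among the genes and list means described, 247 groups of 4 GD9.0 arrays were examined for an array apart from the other 3, and 16 had one, where chance gives about 1 in 20 groups. Replicate 1 was the array apart for Prl8a2, whose GD9.0 level there was 4.27 against a mean of 4.60 in the others, for Dll3 (4.77 against 4.40), Bcl2 (4.245 against 3.94), Dmrta1 (4.34 against 4.72), Myc (5.42 against 5.64), Grhl2 (3.78 against 3.96) and the placental marker Tpbpa (0.966 against 1.09, below the background). Replicate 2 was apart for Pou3f3 (5.08 against 5.22), Shh (5.71 against 5.83), Psph (5.72 against 5.87) and Grhl3 (2.07 against 1.86). Replicate 3 was apart for Cdc7 (7.10 against 7.01), and replicate 4 for Asns (7.18 against 7.32), Cnpy1 (2.92 against 3.38) and Ggh (3.88 against 3.94). The ribosomal protein list mean, at 10.3 in all arrays, had 1 array apart by a difference in its later digits. For Prl8a2, Dmrta1, Pou3f3 and Cnpy1 the array apart still lay outside the GD8.5 arrays.

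The change after GD9.0 differed from the change before it, in limma's test of the difference with Benjamini-Hochberg adjustment, in 8 genes named for its size. It was more positive after GD9.0 in Prl8a2 (6.07, adjusted p = 1.1e-08), Hoxb5os (3.74, 2.0e-06), Ankrd1 (3.63, 2.8e-07) and Srgn (3.61, 1.2e-06). It was more negative in Afp (-3.29, 9.5e-07), Dmrta1 (-2.51, 8.6e-05), Rnf152 (-2.46, 2.3e-05) and Filip1 (-2.41, 0.00026). All 8 differences use the GD9.0 arrays on both sides, and chance scatter in those arrays enters both changes with opposite sign.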

How the results depend on the processing

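The 1233 rises, 1227 falls and 2118 differences between the intervals were recomputed under 18 other settings. They went to 4116, 2915 and 4300 with GD8.5 replicates 1 and 2 in place of 3 and 4, after quantile normalization of all 12 arrays. The cause of these higher counts was not tested. Over every probe set (45037 tested) there were 1929 rises and 3291 interval differences. With 12 arrays after log2 and quantile normalization there were 1089 interval differences. Leaving out 1 array gave 630 to 1122 rises, 754 to 1114 falls and 1373 to 1690 differences, lowest without a GD8.5 array, where the lone array left is assumed to vary like the other stages. With only the 6 log2 arrays there were 989 rises and 1033 falls, of which 1932 in all were shared with the main calls. Median centring moved the share of rises among calls from 50.1% to 60.1% (1546 and 1025). The labels do not say that equal replicate numbers share a litter or day, so they were not treated as pairs. Deviations of equal numbers from the stage mean had correlations of 0.035 and 0.00043. With 2 arrays at GD8.5 the deviations mirror each other, so these correlations cannot show whether numbers are paired. The replicate block gave 981 rises, 918 falls and 1580 interval differences.

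Of 195 named genes with a call, 173 were measured in all 18 settings, and 121 of these kept their direction and call in each. Of the other 22, 17 kept them wherever they were measured. The calls of Shh, Pax6, Fgfr3, Hspa1b, Igfbp3 and Ggh were lost in 2 settings. These were all 12 arrays, and GD8.5 replicates 1 and 2 in place of 3 and 4. Reversed signs occurred for Hbb-b2 (0.059 with 12 arrays), and with GD8.5 replicates 1 and 2 in place of 3 and 4 for Grhl2 (0.15), Hbb-b2 (0.69), Hes7 (0.51), Msx2 (0.078), Sox10 (0.28) and Tyms (-0.053). The cause was not tested. With GD8.5 replicates 1 and 2 in place of 3 and 4, 31 of 42 list counts of 5 or more genes stayed within 1.5-fold. Lists with calls in only 1 direction then gained some in the other. They included 3 higher sarcomere genes, 3 lower neural progenitor genes and 2 lower sterol genes. With a replicate block there were 9 rather than 14 falls in the closure list and in the matrix list. With a plain-ending probe set rule the erythroid rises were 7 rather than 11 and the endothelial falls 6 rather than 10, and with 12 arrays the cell cycle entry rises were 4 rather than 9. Genes near the background of 1.42 limit what could be detected, and 13018 of 18193 genes lay above it.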
